A study of Mus musculus with 12 samples.

Results

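The 84 genes described here are nuclear genes of the mitochondrial respiratory chain and the ATP synthase, and all but Atp5s and Atp5sl encode subunits. They were chosen by symbol from the 24541 genes of the deposited expression table: the Nduf genes of complex I, Sdha to Sdhd of complex II, the Uqcr genes and Cyc1 of complex III, Cycs, the Cox4 to Cox8 genes of complex IV and the Atp5 genes of complex V, without Cox7a1 and Cox8b. Complex I had 35 genes, complex II 4, complex III 9, cytochrome c 1 (Cycs), complex IV 18 and complex V 15. Ndufa4 and its paralogue Ndufa4l2 were counted with complex IV, where the protein of Ndufa4 is known to sit. Atp5s and Atp5sl match the symbols chosen and were counted apart. The table held 0 rows of the mitochondrial genome, so the subunits encoded there are not analysed here.

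The respiratory chain passes electrons from NADH at complex I and from succinate at complex II through coenzyme Q, complex III and cytochrome c to oxygen at complex IV, and complex V makes ATP from the proton gradient that the chain builds. Its nuclear subunits are made in the cytosol and imported into mitochondria, and their genes are known to be driven by NRF1, GABPA (an ETS factor), YY1, the oestrogen-related receptors (ERR) and the coactivators PGC-1alpha and PGC-1beta. In white adipocytes the chain supplies the ATP for making and releasing fatty acids.

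RNA was sequenced from primary adipocytes of the epididymal fat of C57BL/6N mice, in 12 libraries. The groups, with 3 libraries each, were 18-month-old mice with an adipocyte-specific knockout of Crtc2 (old AKO), 18-month-old mice with floxed Crtc2 that the labels call wild type (old WT), 3-month-old knockout mice (young AKO) and 3-month-old floxed wild-type mice (young WT). Crtc2 assists CREB, a transcription factor that responds to cyclic AMP. The Cre driver and the number of mice per library are not given in the sources used here, so p-values measure the spread between libraries, which may be technical. The comparisons address the labelled genotype at each age, age within a genotype, and the dependence of the genotype difference on age.

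Libraries held 45935795 to 61125366 estimated reads, and 82 of the 84 genes were among the 15068 genes with enough reads to be tested. Cox7b2 and Cox8c were not. Crtc2 itself went against the labels, with 151 to 161 CPM (counts scaled to library size) in old AKO and 45.3 to 51.6 in old WT, and with 164 to 300 CPM in young AKO, against 53.9 to 79.4 in young WT. AKO and WT therefore mean the libraries as labelled, and directions between them are those of the labels. Summed over 25 adipocyte markers, all of which were detected, the level was 97230 to 107957 CPM in old AKO, 66154 to 83446 in old WT, 118945 to 142238 in young AKO and 107977 to 125413 in young WT. Summed over 25 macrophage markers, of which 0 were at 0 in every library, it was 600 to 813 CPM in old AKO, 1669 to 8385 in old WT, 369 to 465 in young AKO and 543 to 732 in young WT. Old WT replicate 3 was the library at 8385 CPM. In bulk RNA, fewer cells of a type and less RNA per cell cannot be told apart.

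The respiratory chain genes as a whole took their largest share of the reads in young AKO, at 1.76 to 1.86% of each library. The share was 1.53 to 1.58% in old AKO, 1.41 to 1.505% in old WT and 1.35 to 1.63% in young WT. Young AKO had the highest mean of the 4 groups for 75 of the 82 genes tested, against 34.5% of all genes, and old WT the lowest for 56, against 33.6% of all genes.

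**Figure D1:**
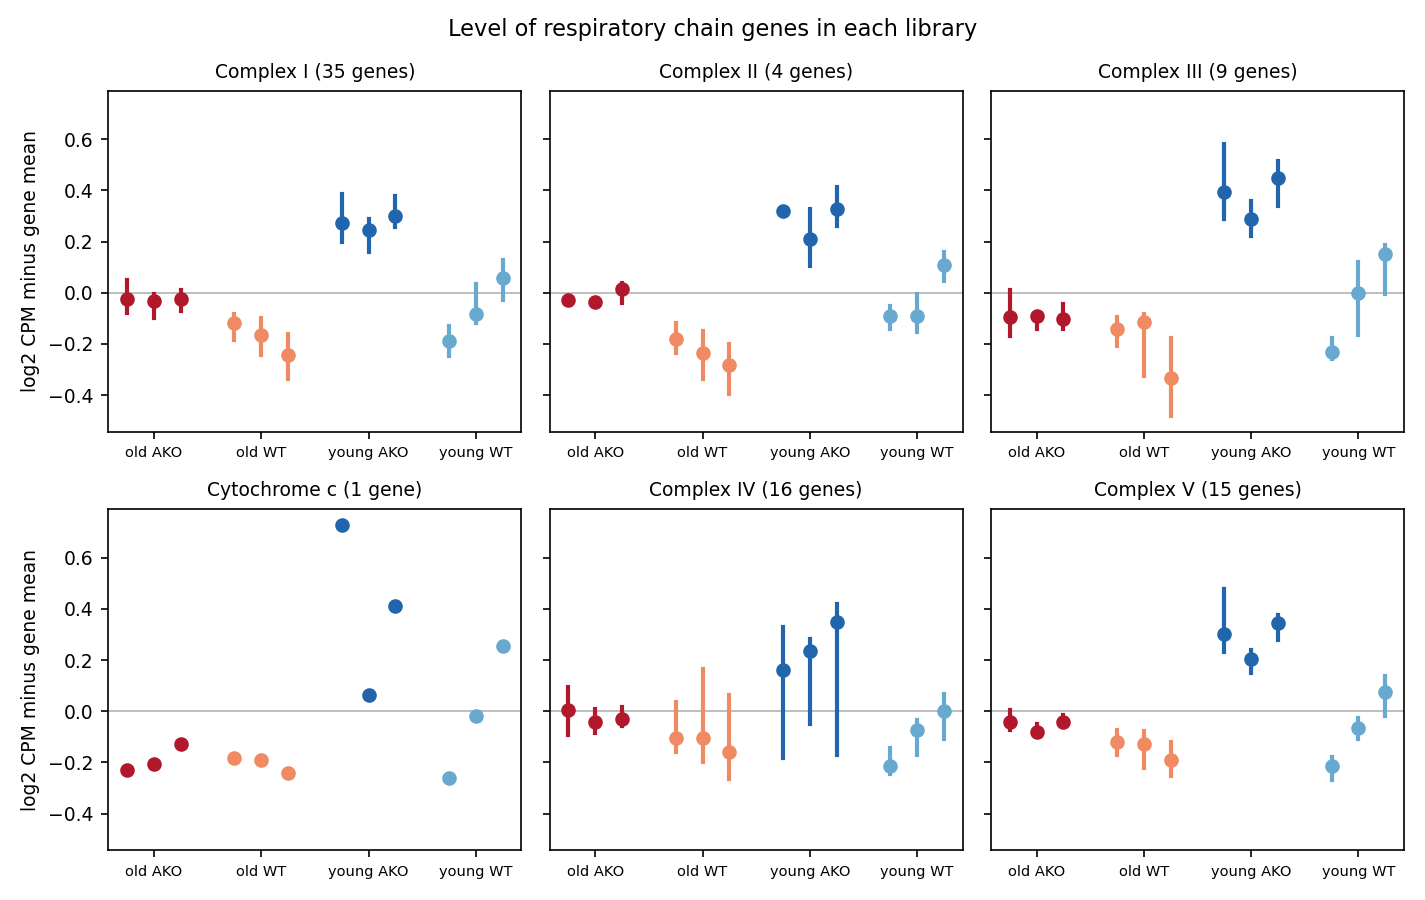
Level of each complex in each of the 12 libraries, as log2 CPM minus the gene's own mean over the libraries. Points are medians over the genes of a complex and bars their quartiles. Young AKO libraries lie highest in complexes I to V, at a median over all 82 genes of 0.23 to 0.33, against -0.20 to 0.06 in young WT.

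Measured per length, as the deposited FPKM (fragment counts scaled by transcript length and library depth), the genes of the ATP synthase and of cytochrome c oxidase were the most abundant. Median FPKM over all libraries was 129 for complex I, 171 for complex II, 202 for complex III and 279 for complex V. It was 176 for complex IV, or 363 for the 12 genes of complex IV left when Cox4i2, Ndufa4l2, Cox6a2, Cox6b2, Cox7b2 and Cox8c, which are isoforms low in these cells, are set aside. The highest level was that of Atp5b, the catalytic beta subunit of the ATP synthase, with 1031 ± 29.4 FPKM in old AKO, 910 ± 62.2 in old WT, 1361 ± 84.7 in young AKO and 1098 ± 190 in young WT (SD, n = 3 each). Cox8a, a small subunit of complex IV, came next at a mean of 1025 FPKM over the 12 libraries. Within complex I, Ndufb8 was the highest at 380 FPKM, and Ndufs5 and Ndufa11 were the lowest at 15.6 and 21.6. Cycs, which carries electrons between complexes III and IV, had 45.9 ± 1.28 FPKM in old AKO, 48.0 ± 0.48 in old WT, 63.2 ± 14.4 in young AKO and 50.4 ± 8.66 in young WT.

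**Figure D2:**
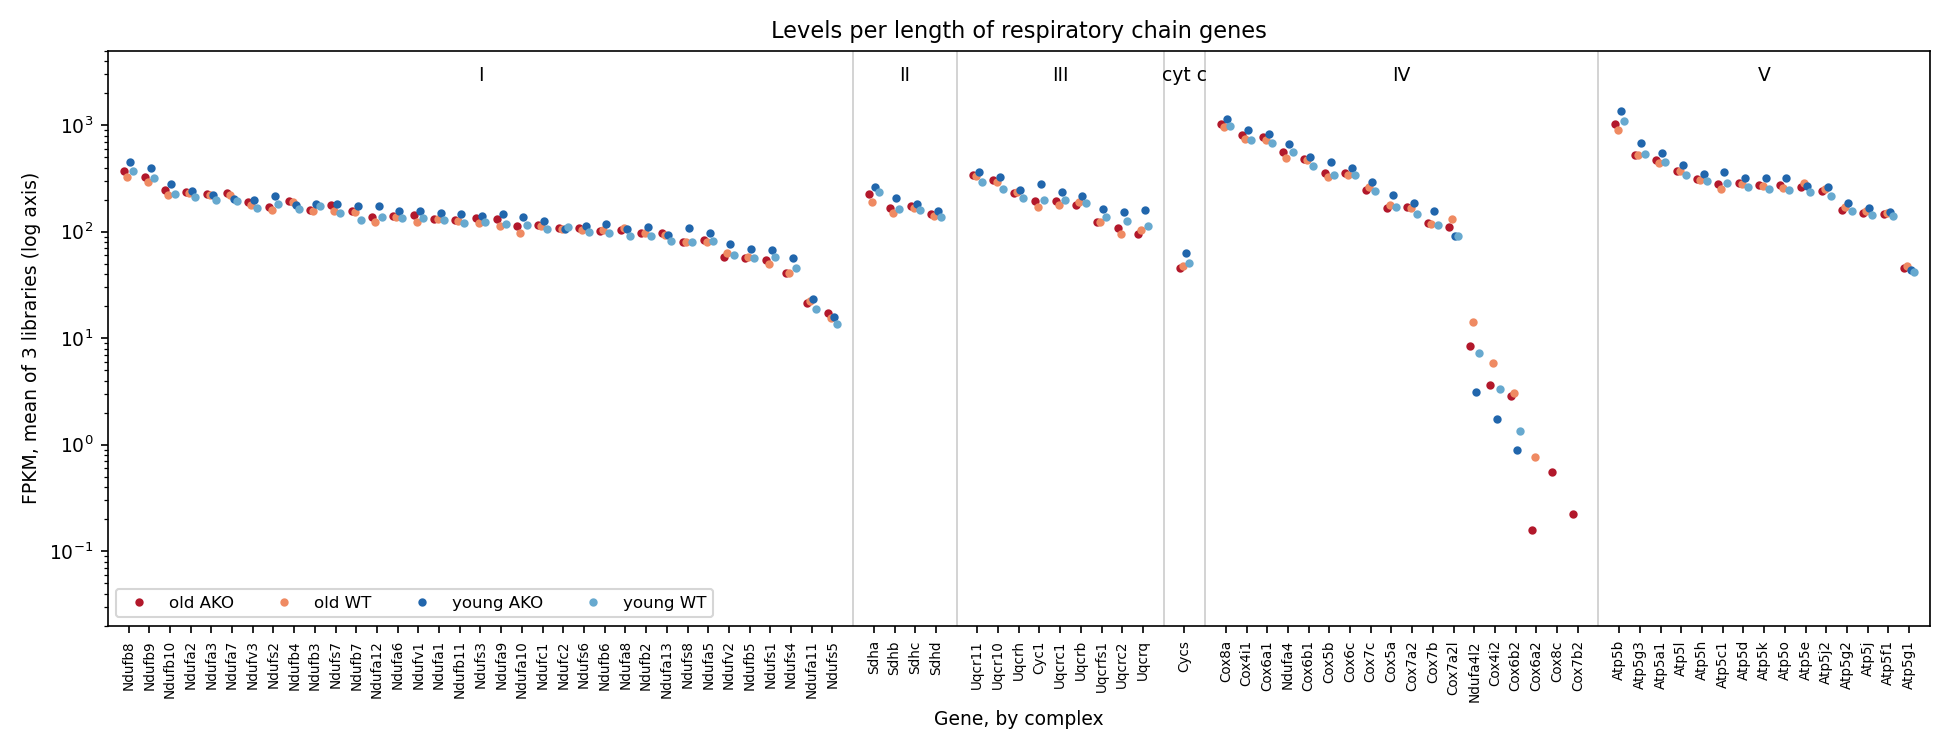
Mean FPKM (log axis) of each gene in old AKO, old WT, young AKO and young WT, 3 libraries each, sorted within a complex. Points at 0 cannot be drawn on this axis, and the 2 genes that are not subunits are left out. The 6 low isoforms of complex IV lie well below the rest, and Ndufs5 and Ndufa11 are the lowest of complex I.

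Young AKO against young WT gave higher levels of most respiratory chain genes in every complex, each by a small amount. In complex IV the log2 differences ran from -1.10 to 0.52. Of the 82 genes, 8 rose and 0 fell, which is 9.76% of them, against 0.186% of all genes tested for a rise and 0.79% for a fall (edgeR quasi-likelihood F-test, adjusted p under 0.05 over all genes). These 8 were among the 28 genes of any kind that rose. The fitted log2 difference was above 0 for 77 of the 82 and below 0 for 4, with a median of 0.35, or 27.6%, against a median of 0.01 over all genes. Over the 5272 genes with a mean log2 CPM of at least 5 the median was 0.06. All 3 young AKO libraries lay above all 3 young WT libraries for 65 of the 82, or 79.3%, against 9.6% of all genes. They lay below all of them for 2 of the 82, or 2.44%, against 11% of all genes.

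In complex I, Ndufb7, a subunit of the membrane arm, had 105, 93.5 and 108 CPM in young AKO, against 67.6, 69.3 and 77.2 CPM in young WT. The groups did not overlap, and the log2 difference was 0.52 ± 0.08 (SE, adjusted p = 0.029, edgeR). Ndufb10, also of the membrane arm, rose by 0.41 ± 0.08 (adjusted p = 0.0455). The other 33 genes of complex I did not pass the test, with log2 differences from 0.05 to 0.51, all above 0. The smallest was that of Ndufc2.

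None of the 4 genes of complex II passed the test in young mice. Sdhb, the iron-sulphur subunit, had 235, 245 and 258 CPM in young AKO, against 163, 179 and 204 CPM in young WT, with no overlap and a difference of 0.43 ± 0.09 (adjusted p = 0.057). In complex III, Uqcr10, a small subunit, rose by 0.46 ± 0.08 (adjusted p = 0.0298), with 154, 157 and 166 CPM in young AKO, against 111, 116 and 121 CPM in young WT. Uqcrq, another small subunit, and Cyc1, the cytochrome c1 that hands electrons to cytochrome c, showed larger differences, of 0.62 ± 0.19 and 0.58 ± 0.13, and did not pass (adjusted p = 0.115 and 0.0576). Their spread was wider: Uqcrq had 271, 240 and 298 CPM in young AKO, against 135, 194 and 199 in young WT. Cycs overlapped, with 264, 166 and 212 CPM in young AKO, against 133, 157 and 190 in young WT.

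In complex IV, 3 genes rose, all of them small subunits around the catalytic core. Cox7b had 172, 159 and 187 CPM in young AKO, against 110, 124 and 128 in young WT (0.52 ± 0.09, adjusted p = 0.029). Cox5b, which binds zinc, had 286, 270 and 300 CPM in young AKO, against 170, 204 and 222 in young WT (0.52 ± 0.10, adjusted p = 0.0434). Cox7a2 rose by 0.45 ± 0.08 (adjusted p = 0.0298). The groups overlapped for none of these. In complex V, Atp5k, subunit e of the membrane part, rose with 107, 95.1 and 106 CPM in young AKO, against 74.9, 76.2 and 79.1 in young WT (0.42 ± 0.08, adjusted p = 0.0339). Atp5o, subunit OSCP of the stalk, rose by 0.47 ± 0.09 (adjusted p = 0.04). Both have a pseudogene copy at least 95% identical over at least 50% of the transcript, so reads may be split between gene and copy.

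The count of 8 depended on the libraries, the tool and the groups in the fit, while the sign of the median did not. Without young AKO replicate 1 or 3, young WT replicate 2 or old AKO replicate 2, 0 genes were called, and without old AKO replicate 1 or 3 or old WT replicate 1 or 2 it was 4, 3, 1 and 2. Without young WT replicate 3, 31 were called, and without old WT replicate 3, 19. The median stayed between 0.29 and 0.42. limma-voom and the 6 young libraries fitted alone called 0, and DESeq2 called 57, of which 56 rose and 1 fell. Young WT replicate 1 was the lowest of its group for 63 of the 82 genes and young WT replicate 3 the highest for 67, so these 2 libraries bounded the young WT range for most genes. Without young WT replicate 1 and old WT replicate 3, a choice made after seeing the data, 16 rose and 1 fell, with a median of 0.28.

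**Figure D3:**
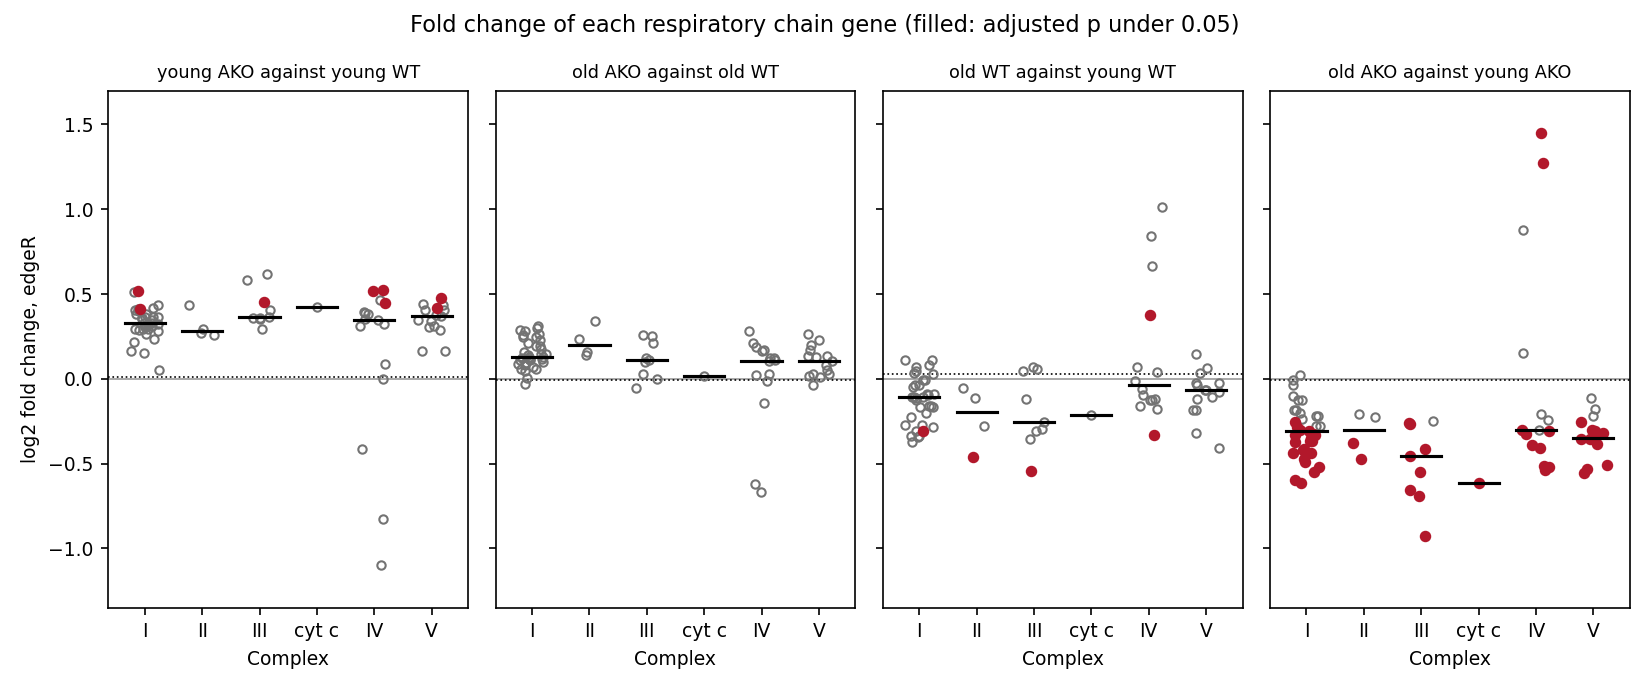
Log2 fold change of each gene (points) in 4 comparisons, by complex. Filled points passed the test (adjusted p under 0.05), black bars are medians of a complex and the dotted line is the median of all genes tested. Cox6a2, where it is beyond the axis, and the 2 genes that are not subunits are not drawn. Most points lie above 0 for young AKO against young WT and below 0 for old AKO against young AKO.

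In old mice the difference between AKO and WT was smaller, and no respiratory chain gene passed the test. With edgeR, 0 of the 82 were called, against 0.796% of all genes for a rise and 5.16% for a fall. An unadjusted p under 0.05 was found for 13 of the 82, against 22% of all genes tested. DESeq2 called 7, all higher, and limma-voom 0. The log2 difference was above 0 for 72 of the 82, with a median of 0.12 or 8.86%, against -0.01 over all genes. Over the 5272 genes with a mean log2 CPM of at least 5, which held 75 of the 82, the median was 0.06. The median of the 82 was 0.041 with total reads and 0.039 with FPKM, where that of all genes was -0.09 and -0.06. Without old WT replicate 1 it was 0.18 for the 82. Old AKO lay above old WT in all libraries for 48 of the 82, or 58.5%, against 17.8% of all genes. Without young WT replicate 1 the edgeR test called 3 and without old WT replicate 1 it called 1, all higher.

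The smallest adjusted p was that of Ndufa9, a complex I subunit near the coenzyme Q site, which had 172, 168 and 177 CPM in old AKO, against 152, 138 and 127 in old WT (0.31 ± 0.09, adjusted p = 0.0643). Sdha, the flavoprotein that oxidises succinate, had 636, 634 and 657 CPM in old AKO, against 550, 502 and 471 in old WT (0.34 ± 0.10, adjusted p = 0.0848). Neither group pair overlapped, and old WT replicate 3 was the lowest library for both. That library, which had the highest macrophage marker sum, was the lowest of old WT for 66 of the 82 genes, and without it the median was 0.11. Cyc1 had 235, 230 and 222 CPM in old AKO, against 208, 190 and 179 in old WT, with no overlap and no call (0.25 ± 0.13, adjusted p = 0.285). Cycs overlapped, at 135, 138 and 146 CPM in old AKO and 140, 139 and 134 in old WT (0.02 ± 0.16).

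The test of a genotype effect that depends on age called 0 of the 82 genes with edgeR, DESeq2 and limma-voom. Of the 82, 25 had an unadjusted edgeR p under 0.05, against 9.35% of all genes tested. The smallest adjusted p was 0.507, and 1 gene of all those tested, or 0.00664%, was called. The interaction, taken as the AKO against WT difference in old mice minus that in young mice, was below 0 for 76 of the 82 with a median of -0.20, against -0.02 over all genes. The median was -0.11 without old WT replicate 1, -0.13 without old WT replicate 2 or old AKO replicate 3, and -0.13 with upper quartile scaling or the stricter filter on low counts. The gene of smallest p was Ndufb7 in complex I (-0.40 ± 0.12), Sdhb in complex II (-0.20 ± 0.13), Uqcrh, the hinge protein, in complex III (-0.33 ± 0.11), Cox7b in complex IV (-0.39 ± 0.12) and Atp5e, subunit epsilon, in complex V (-0.32 ± 0.11). Cycs had -0.40 ± 0.23. Cox6a2 had the lowest fitted value, but with 0 reads in every young library that value depends on the fit and is not given. After it came Uqcrq at -0.67 ± 0.27 and Ndufv2, an iron-sulphur subunit of complex I, at -0.45 ± 0.17. An age dependence of the genotype effect was not shown for any single gene at this number of libraries.

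Old AKO against young AKO gave the most changes, and nearly all of them were falls. Of the 82 genes, 53 fell and 2 rose, which is 64.6% falling and 2.44% rising, against 7.93% and 10.4% of all genes tested (edgeR, adjusted p under 0.05). The median was -0.32, so that a typical gene decreased by 19.9%, against a median of -0.01 over all genes. Old AKO lay below young AKO in all libraries for 69 of the 82, or 84.1%, against 21.7% of all genes. Among the 5272 genes with a mean log2 CPM of at least 5, which held 75 of the respiratory chain genes, 69.3% of those 75 fell, against 13.5% of the 5272. The median over the 5272 was -0.10. This comparison shares its young AKO libraries with young AKO against young WT, so the 2 are not independent.

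Falls were found in every complex. In complex I, 21 of 35 fell, with a complex median of -0.31. Ndufs4, an accessory subunit needed for a stable complex I, had the smallest p of these, with 61.9, 59.8 and 65.7 CPM in old AKO, against 102, 90.2 and 94.1 in young AKO (-0.61 ± 0.12, adjusted p = 0.00829). Ndufs8 and Ndufv2, which carry iron-sulphur clusters, fell by 0.59 and 0.55. At the other end Ndufa7, Ndufs5 and Ndufb4 had log2 differences of 0.02, -0.01 and -0.04 and did not pass. In complex II, Sdhb fell by 0.47 ± 0.09 (adjusted p = 0.0107) and Sdha by 0.38 ± 0.10 (adjusted p = 0.0319), while the membrane anchors Sdhc and Sdhd did not pass.

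Complex III had the lowest median, at -0.45, and 8 of its 9 genes fell. Uqcrq fell most of all 82 genes, with 127, 168 and 131 CPM in old AKO, against 271, 240 and 298 in young AKO (-0.93 ± 0.19, adjusted p = 0.0125). Cyc1 had 235, 230 and 222 CPM in old AKO, against 386.5, 332 and 388 in young AKO (-0.69 ± 0.13, adjusted p = 0.0082). Uqcrc2, a core protein, fell by 0.65 ± 0.13 (adjusted p = 0.0118) and Uqcrb by 0.41 ± 0.08 (adjusted p = 0.00803). Uqcrb has 3 pseudogene copies of the kind described above. The gene of this complex that did not pass was Uqcr11, at -0.25. Cycs fell by 0.62 ± 0.16 (adjusted p = 0.0267). Its old AKO libraries had 135, 138 and 146 CPM, and its young AKO libraries 264, 166 and 212, so the groups did not overlap.

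In complex IV, 8 of 16 genes fell and 2 rose. Cox7b had the smallest p of all 82, with 118, 121 and 123 CPM in old AKO, against 172, 159 and 187 in young AKO (-0.52 ± 0.09, adjusted p = 0.00519). Cox5b fell by 0.51 ± 0.10 (adjusted p = 0.00993). The 2 that rose, Ndufa4l2 and Cox6b2, are low isoforms described below. In complex V, 12 of 15 genes fell. Atp5b had 1856, 1915 and 2011 CPM in old AKO, against 2901, 2590 and 2997 in young AKO (-0.55 ± 0.14, adjusted p = 0.024), and Atp5k fell by 0.35 ± 0.08 (adjusted p = 0.0146). Of the 2 genes that are not subunits, Atp5sl fell and Atp5s did not pass.

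The number of falls moved with the libraries and the scaling, and the direction of the median did not. In all, 55 genes were called. Without old AKO replicate 1 or young AKO replicate 3 it was 11, without old AKO replicate 2 or 3 it was 14 and 16, without young AKO replicate 1 it was 34, and without old WT replicate 1 or 2 it was 35 and 36. Cox7b, Uqcrb, Cyc1, Ndufs4 and Sdhb passed in each fit with 1 library left out. Uqcrq, Cycs and Atp5k did not pass without young AKO replicate 3, nor Uqcrq, Uqcrc2 and Cycs without old AKO replicate 1, Cycs and Atp5k without old AKO replicate 2 or 3, or Cycs without young AKO replicate 1. The median ran from -0.35 to -0.29. The scaling used throughout (TMM) set library sizes by factors of 0.900 to 0.933 in young AKO and 1.01 to 1.04 in old AKO. Scaling by total reads alone gave 14 called genes and a median of -0.17. With FPKM the median was also -0.17. Scaling by total reads moved the median of all genes to 0.15, and relative to that median the respiratory chain genes lay at -0.31, against -0.32 with TMM.

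Old WT against young WT showed a mixed picture, in which 4 genes fell and 2 rose. These were 4.88% and 2.44% of the 82, below the 8.73% and 14.2% of all genes that fell and rose. The genes called as rising were Cox7a2l and Cox6a2, described below. Cox6a2 passed the filter on low counts only through old libraries. The median was -0.11, or -0.05 without young WT replicate 3, against 0.03 over all genes, and 62 of the 82 were below 0. Over the 5272 genes with a mean log2 CPM of at least 5, which held 75 of the 82, the median was -0.09, close to that of the 82. Old WT lay below young WT in all libraries for 14 of the 82, or 17.1%, close to the 17.5% of all genes. Scaled by total reads, the median of the 82 turned to 0.033 and with FPKM to 0.043, while the median of all genes was 0.17 and 0.11. Relative to all genes the median was -0.14, -0.14 with total reads and -0.07 with FPKM.

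Sdha fell, with 550, 502 and 471 CPM in old WT, against 605, 722 and 766 in young WT (-0.46 ± 0.10, adjusted p = 0.0129). Uqcrc2 had 181, 165 and 161 CPM in old WT, against 192, 260 and 287 in young WT (-0.54 ± 0.13, adjusted p = 0.0174). Ndufa4, a subunit of complex IV, had 244, 239 and 197 CPM in old WT, against 276, 282 and 296 in young WT (-0.33 ± 0.09, adjusted p = 0.0287). Ndufb3, a small complex I subunit, fell by 0.31 ± 0.09 (adjusted p = 0.0304). None of the 4 pairs of groups overlapped. All 4 also fell in old AKO against young AKO, by 0.38, 0.65, 0.39 and 0.36. That of Ndufa4 was not called without any 1 of the old AKO libraries or young AKO replicate 3. Atp5b was lower by -0.41 ± 0.14 in old WT and did not pass (adjusted p = 0.0569).

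These calls rested on single libraries. Without young WT replicate 3, 0 of the 82 were called. Without young WT replicate 2 the count was 1, without old WT replicate 3 it was 2, without old WT replicate 2 it was 3, and without young WT replicate 1 it was 24. Sdha lost its call without young WT replicate 3. Uqcrc2 and Ndufa4 lost theirs without old WT replicate 3 or young WT replicate 2 or 3, and Ndufb3 without these or old WT replicate 2. Without old WT replicate 3 and young WT replicate 1, 17 fell and 1 rose. The 6 WT libraries fitted alone gave 0 calls, and DESeq2 gave 21.

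In old AKO against young AKO the fitted differences of Ndufa4l2, Cox4i2, Cox6b2 and Cox6a2, the low isoforms of complex IV, were above 0, while those of Ndufa4, Cox4i1, Cox6b1 and Cox6a1, their common forms, were below 0. Ndufa4l2, a hypoxia-induced paralogue of Ndufa4 known from pericytes, had 9.57, 7.58 and 7.22 CPM in old AKO, against 4.72, 2.78 and 2.61 in young AKO (1.27 ± 0.29, adjusted p = 0.0164). It was also lower in young AKO than in young WT, with 5.31, 8.27 and 8.05 CPM in young WT, without overlap and without a call (-1.10 ± 0.29, adjusted p = 0.0785). Old WT libraries had 12.2, 17.1 and 9.49 CPM. Its share of the FPKM of Ndufa4 and Ndufa4l2 together was 1.48 ± 0.24% in old AKO, 2.80 ± 0.62% in old WT, 0.475 ± 0.18% in young AKO and 1.27 ± 0.27% in young WT. The call was lost without old AKO replicate 1 (adjusted p = 0.0692) or young AKO replicate 3 (adjusted p = 0.0691, edgeR).

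Cox4i2, the form of subunit 4 found in lung and in cells of vessel walls, followed the same order of groups. It had 3.53, 2.30 and 2.02 CPM in old AKO, 4.08, 5.68 and 2.28 in old WT, 1.545, 1.499 and 1.23 in young AKO and 2.07, 3.15 and 2.37 in young WT, and passed in no comparison. Its common form Cox4i1 had 614, 593 and 590 CPM in old AKO, against 654, 735 and 826 in young AKO. The summed level of 12 smooth muscle and pericyte markers was 713 to 812 CPM in old AKO, 736 to 1273 in old WT, 412 to 565 in young AKO and 637 to 863 in young WT, again lowest in young AKO. Of these markers, 0 were at 0 in every library, and their part in the levels of Ndufa4l2 and Cox4i2 was not tested.

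Cox7a2l, which helps to join complexes III and IV into supercomplexes, was called higher in old WT than in young WT, as was Cox6a2, described below. It had 126, 125 and 148 CPM in old WT, against 119, 84.4 and 104 in young WT (0.38 ± 0.12, adjusted p = 0.0475). Leaving out any library but young WT replicate 1 ended the call. In the AKO libraries it did not pass (0.15 ± 0.12), while its paralogue Cox7a2 fell there by 0.30 ± 0.08 (adjusted p = 0.0242), a call lost without old AKO replicate 2 or 3 or young AKO replicate 1 or 3.

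Cox6a2, the heart and muscle form of subunit 6a, had 9, 15 and 51 reads in old WT and 0 in each young WT library. This is at least 22.9-fold higher, taking 3 reads over the group as the floor. With 0 reads in every young library, Cox6a2 passed the filter on low counts only through old libraries. Its call (adjusted p = 0.0388, edgeR) therefore gives no support for a rise with age. The gene was not called without old WT replicate 2 or 3, any 1 of the young WT libraries or old AKO replicate 2 or 3. Old AKO had 0, 14 and 6 reads, against 0 in each young AKO library, at least 5.54-fold higher and not called (adjusted p = 0.138). The counts are few, and Cox6a2 overlaps Itgad, an integrin of macrophages. Itgad had 53, 197 and 44 reads in old AKO, 202, 108 and 643 in old WT, 0, 5 and 0 in young AKO and 57, 21 and 12 in young WT. Whether counting used the strand is not given in the sources used here, so the reads of the 2 genes cannot be told apart. Summed skeletal muscle markers ran from 49.4 to 56.4 CPM in old WT and from 54.9 to 218 in young WT. The part of muscle RNA in the reads of Cox6a2 was not tested.

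Cox6b2, a form of subunit 6b known from testis, had 2.13, 1.22 and 1.43 CPM in old AKO, against 0.402, 0.68 and 0.662 in young AKO (1.45 ± 0.45, adjusted p = 0.0465). Leaving out any 1 of these libraries ended the call, as did leaving out old WT replicate 1 or 2 or young WT replicate 2. Cox8c and Cox7b2, which are also testis forms, had 46, 2 and 0 and 20, 2 and 0 reads in the old AKO libraries and 0 in all 9 others. Old AKO replicate 1, which held most of these reads, had 96.3 CPM of testis and epididymis markers, against at most 7.99 CPM in the other libraries. Cox6b2 had 1.06, 1.41 and 2.24 CPM in old WT. The part of testis or epididymis RNA in the reads of Cox6b2, Cox8c and Cox7b2 was not tested.

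**Figure D4:**
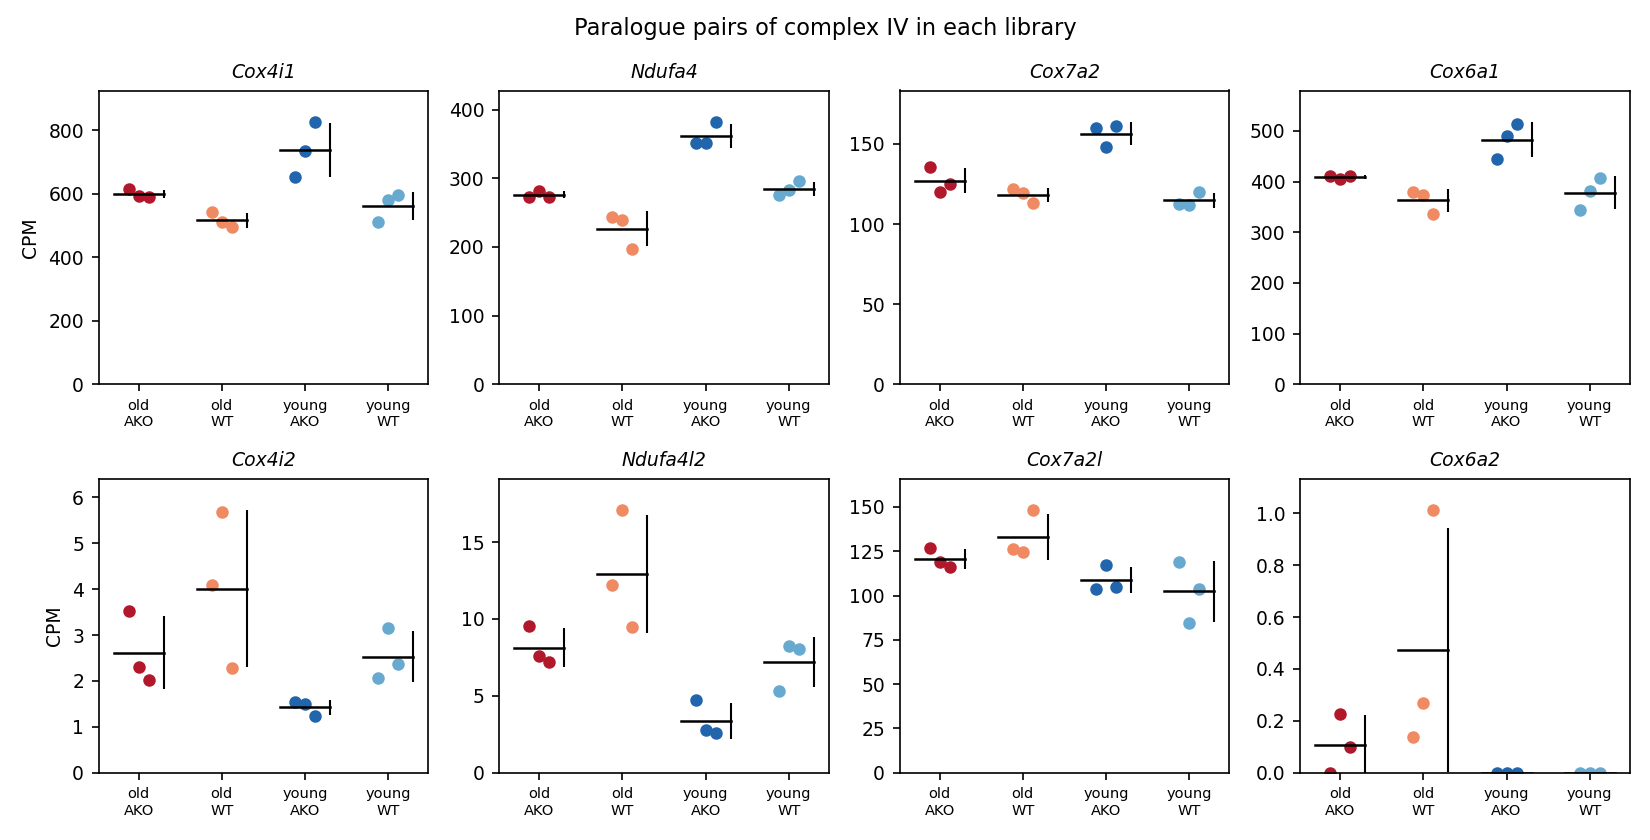
CPM of common forms (upper row) and their paralogues (lower row) in each library. Points are libraries, horizontal bars group means and vertical bars SD (n = 3). Cox4i1, Ndufa4, Cox7a2 and Cox6a1 have their highest mean in young AKO, where Cox4i2 and Ndufa4l2 have their lowest.

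The 3 genes for subunit c, which forms the rotating ring of the ATP synthase and has the same mature protein from each, gave unequal values. Atp5g3 made up 71.9 ± 0.75% of their summed FPKM in old AKO, 70.6 ± 2.02% in old WT, 74.7 ± 1.69% in young AKO and 72.9 ± 1.55% in young WT. It fell by 0.51 ± 0.13 in old AKO against young AKO (adjusted p = 0.0257), as did Atp5g2 by 0.35 ± 0.09 (adjusted p = 0.0292). Atp5g1, which supplied 4.88 ± 0.41% in young AKO, had 36.0, 34.96 and 37.0 CPM in old AKO, against 40.8, 38.6 and 37.3 in young AKO (-0.11 ± 0.13, adjusted p = 0.557). The calls of Atp5g2 and Atp5g3 were lost without any 1 of the old AKO libraries or without young AKO replicate 1 or 3, and that of Atp5g2 also without old WT replicate 1.

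Promoters are shown for 5 of the genes that fell in old AKO against young AKO, to set the letters of the known regulators of these genes beside the values above. Atp5k and Ndufb7 also rose in young AKO against young WT, Cycs and Uqcrfs1 (the Rieske iron-sulphur protein of complex III) hold the letters of the CREB site, and Ndufs4 holds those of YY1. Each runs from 250 bases before to 50 bases after the RefSeq transcript start, 5′ to 3′ on the strand of the gene, in GRCm38.p6. The windows are chr5:108434350-108434649 (minus strand) for Atp5k, chr8:83566508-83566807 (plus) for Ndufb7, chr6:50566520-50566819 (minus) for Cycs, chr13:30545267-30545566 (minus) for Uqcrfs1 and chr13:114388045-114388344 (minus) for Ndufs4. Capitals mark the letters searched for on both strands: AAGGTCA (ERR), GCGCATGC (NRF1), CCGGAAG (ETS), AAGATGG (YY1) and TGACGTCA (the cyclic AMP response element, CRE).
Atp5k: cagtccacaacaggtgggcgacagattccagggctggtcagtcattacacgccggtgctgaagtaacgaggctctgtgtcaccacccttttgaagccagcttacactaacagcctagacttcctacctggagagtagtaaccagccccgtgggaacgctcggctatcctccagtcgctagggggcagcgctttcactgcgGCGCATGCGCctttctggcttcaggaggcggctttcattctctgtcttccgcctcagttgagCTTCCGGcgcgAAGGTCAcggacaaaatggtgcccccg
Ndufb7: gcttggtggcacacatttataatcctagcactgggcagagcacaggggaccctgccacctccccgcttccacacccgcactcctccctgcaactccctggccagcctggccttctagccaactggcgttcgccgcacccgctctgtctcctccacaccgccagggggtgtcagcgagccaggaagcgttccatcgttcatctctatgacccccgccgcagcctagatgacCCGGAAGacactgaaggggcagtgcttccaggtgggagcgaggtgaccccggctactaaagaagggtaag
Cycs: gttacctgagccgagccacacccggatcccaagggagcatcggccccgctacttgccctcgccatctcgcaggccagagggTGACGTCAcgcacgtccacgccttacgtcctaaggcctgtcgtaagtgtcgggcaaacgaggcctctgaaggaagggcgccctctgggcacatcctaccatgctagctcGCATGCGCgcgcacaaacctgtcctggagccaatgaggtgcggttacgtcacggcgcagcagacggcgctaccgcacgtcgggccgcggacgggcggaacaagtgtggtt
Uqcrfs1: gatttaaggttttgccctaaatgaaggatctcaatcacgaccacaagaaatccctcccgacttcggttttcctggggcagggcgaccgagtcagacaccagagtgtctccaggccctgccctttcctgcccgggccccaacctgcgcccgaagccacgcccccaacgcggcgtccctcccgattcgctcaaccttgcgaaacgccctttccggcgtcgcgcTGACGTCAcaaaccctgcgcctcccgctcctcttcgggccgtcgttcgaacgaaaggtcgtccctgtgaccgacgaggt
Ndufs4: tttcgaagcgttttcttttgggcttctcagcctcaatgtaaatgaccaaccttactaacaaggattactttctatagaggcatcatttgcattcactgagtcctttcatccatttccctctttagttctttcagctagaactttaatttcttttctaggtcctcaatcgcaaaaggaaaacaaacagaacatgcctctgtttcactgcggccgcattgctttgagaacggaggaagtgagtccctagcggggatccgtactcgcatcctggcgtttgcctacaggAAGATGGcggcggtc

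In Atp5k the NRF1 letters lie at -50 on one strand and at -48 on the other, sharing bases, and the ETS and ERR letters at 12 and 23 after the start. In Ndufb7 the ETS letters lie at -20. In Cycs the CRE lies at -169 and the NRF1 letters at -60, in Uqcrfs1 the CRE lies at -29, and in Ndufs4 the YY1 letters lie at 35. RefSeq promoters were given for 68 of the 84 genes, in 74 windows. ERR letters were in 10.8% of these windows, against 4.72% of all 32851 promoters, and NRF1 letters in 14.9%, against 2.71%. ETS letters were in 21.6%, against 8.86%, and YY1 letters in 17.6%, against 6.34%. The CRE was in 6.76% of the windows, those of Cycs, Ndufa10, Ndufa11, Ndufb2 and Uqcrfs1, against 1.79% of all promoters. Of the 68 genes, 39 held at least 1 of the 5 motifs and 29 none. A match describes letters in this window and shows no binding.

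Of Nrf1, Gabpa, Yy1 and Esrra, genes of factors known to bind the NRF1, ETS, YY1 and ERR letters, none passed the test in any of the comparisons. Nrf1 averaged 16.7 CPM in old AKO, 16.7 in old WT, 17.3 in young AKO and 17.0 in young WT. Esrra, the gene of ERRalpha, had the largest of these differences in young mice, 69.0 ± 16.4 CPM in young AKO, against 47.6 ± 4.53 in young WT (0.54 ± 0.15, adjusted p = 0.0866). Ppargc1a, which encodes PGC-1alpha, fell with age in both genotypes. It had 4.75 ± 1.23 CPM in old AKO, against 10.2 ± 1.16 in young AKO (-1.10 ± 0.28, adjusted p = 0.0257), and 3.35 ± 0.31 in old WT, against 6.49 ± 2.72 in young WT (-0.95 ± 0.29, adjusted p = 0.0358). Ppargc1b fell in WT (-0.94 ± 0.26, adjusted p = 0.0251). Nrip1, a corepressor of mitochondrial genes, also fell in WT (-1.43 ± 0.30, adjusted p = 0.00892). Of the 28 regulators tested, 0 passed for AKO against WT at either age, 5 fell and 1 rose in old WT against young WT, and 2 fell in old AKO against young AKO. Over all genes tested, 8.73% fell and 14.2% rose in old WT against young WT, and 7.93% fell in old AKO against young AKO. For AKO against WT, 0.186% rose and 0.79% fell in young mice, and 0.796% rose and 5.16% fell in old mice. The gene that rose was Perm1, a muscle coactivator.

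Of the 48 assembly factors tested, 0 passed in young AKO against young WT and 1, Tmem186 of complex I assembly, rose in old AKO against old WT (0.41 ± 0.10, adjusted p = 0.0452). Their medians were 0.19 and 0.13. Over all genes tested, 0.186% rose and 0.79% fell in young AKO against young WT, and 0.796% rose and 5.16% fell in old AKO against old WT. In old AKO against young AKO 3 fell: Bcs1l, which inserts the Rieske protein into complex III (-0.53 ± 0.09, adjusted p = 0.00661), and Cox14 and Cox11 of complex IV assembly. In old WT against young WT 7 fell, Bcs1l (-0.40 ± 0.09, adjusted p = 0.0148) and Cox14 among them. The first of these counts is below the 7.93% of all genes that fell in that comparison, and the other stands beside 8.73% of all genes. Of 28 genes of the mitochondrial import machinery, 8 fell in old AKO against young AKO and 0 passed in young AKO against young WT, with medians of -0.26 and 0.26. Timm50, a receptor of the inner membrane translocase, fell by 0.44 ± 0.11 (adjusted p = 0.0218) and its motor partner Timm44 by 0.43 ± 0.11 (adjusted p = 0.0251).

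Of 7 carriers of ADP and phosphate and porins, 3 fell in old AKO against young AKO: Slc25a3, the phosphate carrier (-0.39 ± 0.10, adjusted p = 0.0237), Slc25a5, an ADP and ATP exchanger (-0.64 ± 0.17, adjusted p = 0.0279), and Vdac3, a porin of the outer membrane (-0.41 ± 0.10, adjusted p = 0.0222). None passed in the other comparisons. Of 11 genes of coenzyme Q synthesis, 3 fell in old AKO against young AKO, 4 fell in old WT against young WT and 2, Coq4 and Coq5, rose in old AKO against old WT (0.39 ± 0.10 and 0.34 ± 0.09). Of 7 enzymes that feed electrons to coenzyme Q outside complexes I and II, 5 fell in old WT against young WT, led by Chdh, which oxidises choline (-1.81 ± 0.35, adjusted p = 0.00722). Over all genes tested, 7.93% fell in old AKO against young AKO and 8.73% fell in old WT against young WT. In old AKO against old WT 0.796% of all genes rose. These lists are short, so their counts are descriptions. Gpd2, of the glycerol phosphate shuttle, fell with age in both genotypes, by 0.95 ± 0.21 in AKO (adjusted p = 0.0151) and 0.74 ± 0.21 in WT (adjusted p = 0.0293).

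Markers of the cells themselves moved in the same comparisons. For old AKO against young AKO, 3 of 25 adipocyte markers fell and 1 rose (median -0.29). Rises were called for 14 of 20 endothelial markers (median 1.03) and 11 of 12 mesothelial markers (median 2.41). They were also called for 10 of 25 macrophage markers (median 0.97) and 5 of 12 smooth muscle and pericyte markers (median 0.98). Among the 21 progenitor and fibroblast markers, 12 rose and 1 fell (median 1.31). In that comparison 10.4% of all genes tested rose and 7.93% fell. In young AKO against young WT the medians were 0.17 for adipocyte markers, with 0 of 25 passing, -0.995 for endothelial markers, with 1 of 20 falling, and -0.93 for progenitor and fibroblast markers, with 3 of 21 falling. Medians were -0.87 for macrophage markers, with 0 of 25 passing, and -1.21 for mesothelial markers, with 1 of 12 falling. Of all genes tested, 0.186% rose and 0.79% fell there. In old AKO against old WT, 23 of 25 macrophage markers fell and 3 of 25 adipocyte markers rose, and in old WT against young WT, 23 of 25 macrophage markers rose and 11 of 25 adipocyte markers fell. Of the 21 progenitor and fibroblast markers, 7 fell in the first of these 2 comparisons, and 15 rose and 2 fell in the second. Of all genes tested, 0.796% rose and 5.16% fell in the first, and 14.2% rose and 8.73% fell in the second. The part of cell makeup in the levels of the respiratory chain genes was not tested.

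The respiratory chain genes varied less within groups than the genes tested as a whole, which mostly have lower levels. Of the 15068 genes tested, 5272 had a mean log2 CPM of at least 5, and these held 75 of the 82. No comparison at matched levels was made. Their median coefficient of variation over 3 libraries was 3.29% in old AKO, 4.69% in old WT, 6.41% in young AKO and 9.81% in young WT. Over all genes it was 9.10% in old AKO, 11.99% in old WT, 14.5% in young AKO and 16.6% in young WT. Young WT was thus the group with the widest spread of the respiratory chain genes.

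The 84 genes were given as 116 transcripts, with 65 genes having 1 and 19 several. Variant 1 of Ndufv3, a complex I flavoprotein subunit with a long and a short form, held 33.0 ± 2.84% of its reads in old AKO, 33.3 ± 0.70% in old WT, 36.5 ± 0.96% in young AKO and 36.7 ± 3.57% in young WT. Atp5f1, subunit b of the stalk, had all or nearly all of its reads on variant 1 in some libraries and on another variant in others. Variant 1 held 99.9, 0 and 99.9% in old AKO, 0, 99.9 and 99.9% in old WT, 99.96, 99.9 and 0% in young AKO and 0, 99.9 and 0% in young WT. Both states occurred in every group, so no group comparison was made of these variants. Of the 84 genes, 12 had a pseudogene copy at least 95% identical, Atp5l with 8 the most, and 27 were overlapped by another RefSeq gene.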

How the data were processed

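Poly-A RNA of epididymal primary adipocytes was sequenced with TruSeq mRNA libraries on a HiSeq4000, per the labels' protocols. Per the submitters' processing notes, the tools were StringTie 1.3.4d, HISAT2 2.1.0, Bowtie2 and HISAT, and the build was mm10. The role of each tool is not given in the sources used here. Per the file headers, the deposited table lists 36779 transcripts, with FPKM and an estimated count per library. The counts are not scaled for depth, while the deposited FPKM values are scaled by the authors for length and depth and served for levels between genes and as an alternative. Totals ran from 45935795 to 61125366 estimated reads, and their number limits the precision of low genes. The content of 1 blank line is not analysed here.

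The estimated counts, all whole numbers, were added up per symbol and given TMM factors in edgeR 4.0.16 under R 4.3.3. The quasi-likelihood F-test of edgeR was then run on the 15068 genes that filterByExpr left, with all 12 libraries in the model and 1 mean for each group, two-sided, with Benjamini-Hochberg adjustment over all genes within a comparison and calls at an adjusted p under 0.05. Degrees of freedom were 8 residual and 2.89 prior, and the common coefficient of variation was 24.7%. The fit was tested on simulated data. The genes and all lists were chosen with earlier results of these data known, so counts over them are descriptions. Genes named are the smallest p per complex and comparison, the 3 largest rises and falls, the isoform pairs and up to 3 genes per pathway list. Outside this rule, chosen with their values in view, are Ndufb10, Atp5o, Ndufs8, Ndufa7, Ndufs5, Ndufb4, Ndufc2, Ndufa11, Ndufb8, Cox8a, Sdhc, Sdhd, Uqcr11, Uqcrfs1, Atp5s, Atp5sl, Cox7b2, Cox8c, Ndufv3, Atp5f1 and Itgad, Ndufv2, Cox5b, Atp5b, Sdha and Cyc1 in a further comparison, and some genes of the pathway lists.

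Alternatives were DESeq2 1.42.0, limma-voom and limma-trend on log2(FPKM + 1) (limma 3.58.1), other scalings and filters on low counts, transcripts not summed, the replicate number as a block, the groups compared alone, and each library left out in turn. Promoters were taken from RefSeq (GRCm38.p6), and pseudogene copies were searched with BLAST 2.17.0. Figures were drawn with matplotlib 3.10.9, and tables were read with pandas 2.3.3 in Python 3.11.15.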

Additional observations from a re-analysis of the deposited data

How the results depend on the processing

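The sign of the median log2 difference of the 82 genes held in every fit tried for 4 of the 5 comparisons. The exception was old WT against young WT, which reversed to 0.033 with total counts and 0.043 with FPKM. For young AKO against young WT the 8 calls became 4 with total counts or no filter, 57 with DESeq2, 0 with limma-voom, FPKM, transcripts not summed or only the groups compared, and 17 without old WT replicate 3 and young WT replicate 1. For old AKO against old WT the 0 calls became 2 with the stricter filter (1 CPM in 3 libraries) and 7 with DESeq2, and the median became 0.041 with total counts and 0.039 with FPKM. For old WT against young WT the 6 calls became 17 with the stricter filter, 21 with DESeq2, 3 with transcripts not summed, 0 with only the groups compared and 18 without old WT replicate 3 and young WT replicate 1. For old AKO against young AKO the 55 calls became 14 with total counts or FPKM, 34 with upper quartile scaling and 31 with transcripts not summed, 61 without old WT replicate 3 and young WT replicate 1, and the median became -0.17 with total counts or FPKM, -0.25 with upper quartile scaling and -0.28 with the stricter filter. With 1 library left out, calls ran from 0 to 31, 0 to 3, 0 to 24 and 11 to 59 in these 4 comparisons in the order given, with 0 throughout for the interaction. Medians ran from 0.29 to 0.42, from 0.11 to 0.18, from -0.16 to -0.05, from -0.35 to -0.29 and, for the interaction, from -0.26 to -0.11. The causes were not tested. Over the genes named, 1965 of the alternative values kept their side of the threshold, 168 lost it, 47 gained it and 0 called values reversed.

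The deviations of same-numbered libraries of different groups from their group means had correlations of -0.27 to 0.17. With 3 libraries a group these correlations cannot tell whether the numbers pair the samples. With the replicate number as a block, 1 gene was called in young AKO against young WT, 4 in old WT against young WT and 40 in old AKO against young AKO. Without the block these counts were 8, 6 and 55. With 3 libraries a group, small differences and genes with few reads, such as Cox6a2, Cox6b2, Cox7b2 and Cox8c, are at the limit of what the depth can show.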
